A study of Mus musculus with 21 samples.

Results

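The collagen chain genes encode the chains that wind together into collagen, the main structural protein of the extracellular matrix. Fibrillar collagens (types I, II, III, V, XI, XXIV and XXVII) form the ropes that carry load, network collagens such as type IV form the sheet of every basement membrane, and type VI forms beaded filaments around cells. Fibril-associated collagens, known as FACITs, sit on fibril surfaces, and the multiplexins XV and XVIII, type VII and the transmembrane collagens link basement membranes to stroma or to epithelium. In the gut wall most chains are made by fibroblasts, smooth muscle, pericytes and endothelium, while types VII and XVII anchor stratified epithelia. The genes were taken as the rows of the deposited count table whose symbol is Col followed by a type number, the letter a and a chain number. This gave 44 of the 24062 genes in the table, the same 44 that GENCODE lists. By class, 11 are fibrillar, 9 network, 7 beaded filament, 9 FACIT, 4 transmembrane, 2 multiplexin, 1 anchoring fibril and 1 of another kind.

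RNA from mouse colon was sequenced in 21 libraries, 3 in each of 7 groups. All mice were C57BL/6 and either wild-type or App NL-G-F knock-in, a line that carries familial Alzheimer's disease mutations in the mouse's own App gene. Normal colon came from untreated males and females of both genotypes, although the description of the series also speaks of normal tissue taken beside tumours. Tumours came from animals given AOM/DSS, the carcinogen azoxymethane with the colon irritant dextran sulfate sodium, in wild-type males, knock-in males and wild-type females. Knock-in female tumours were not analysed here, and the labels give neither age nor any link between libraries and animals. The p-values therefore measure the spread between libraries, which may be technical. The series asks how these App mutations bear on colon tumour formation in each sex.

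Library totals ran from 3414123 to 26174008 counts, so that 3 counts, taken as the floor, stood for 0.127 to 0.872 CPM, the level of a gene relative to the TMM-scaled size of its library. No replicate pair agreed within counting noise (chi-square per degree of freedom 6.603 to 63.4 over 21 pairs). The 8 colon epithelium markers, among them Epcam, Cdh1 and Krt8, were detected in every group. In knock-in female normal colon 2 columns share a header, so these replicates are called a and b. In 7 libraries the squamous keratin gene Krt5 stood at 107 CPM or more, against 35.1 CPM or less in the other 14. They were replicate 1 of 4 groups (male normal colon of either genotype, wild-type male tumours and knock-in female normal colon), knock-in male tumour replicates 2 and 3, and knock-in female normal replicate b. Late running numbers in the labels mark tumour replicate 3 of knock-in males and tumour replicates 2 and 3 of wild-type females. In bulk tissue, fewer cells of a type and less RNA per cell cannot be told apart.

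Of the 44 genes, 40 had enough counts to be tested. The 4 others, Col6a6, Col9a1, Col19a1 and Col26a1, stayed under 1 CPM in the mean of every group, as did the tested Col25a1. On the scale of CPM per kilobase of transcript, which allows genes to be compared, Col3a1 stood highest with a mean over the groups of 180, followed by Col1a1 at 113, Col1a2 at 83.4, Col4a1 at 69.9 and Col4a2 at 39.3. Type III fibrils and type I fibrils, encoded by Col3a1, Col1a1 and Col1a2, took 42.7% to 57.9% of all collagen counts, depending on the library. Below them came Col6a1 (36.5), Col6a2 (25.8), Col18a1 (25.01), Col6a3 (22.6), Col5a2 (20.4), Col12a1 (20.1) and Col5a1 (17.8 CPM per kilobase).

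Together the 44 genes held a smaller share of the library in wild-type female normal colon than anywhere else. Their mean share there was 0.172% ± 0.017 (SD, n = 3). The other normal groups stood at 0.437% ± 0.039 for males of the wild type, 0.519% ± 0.069 for males of the knock-in and 0.389% ± 0.058 for females of the knock-in (SD, n = 3 each). The tumours stood at 0.486% ± 0.038 and 0.597% ± 0.096 for wild-type and knock-in males and at 0.468% ± 0.114 for wild-type females (SD, n = 3 each). The 3 wild-type female normal libraries lay between 0.153% and 0.182%, and the other 18 between 0.337% and 0.693%, so that wild-type female normal colon was the only group apart from all others.

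**Figure D1:**
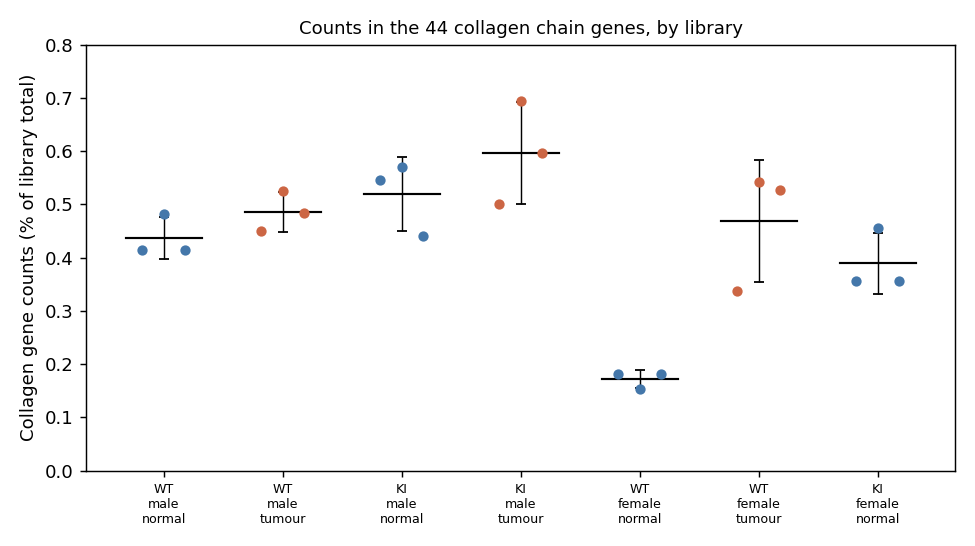
Share of each library's counts that fell in the 44 collagen chain genes (y axis, percent), by group (x axis). Points are libraries, bars the mean and SD of 3. The wild-type female normal libraries, at 0.153% to 0.182%, lie below all others, of which the lowest is wild-type female tumour replicate 1 at 0.337%.

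Each background that has both tissues gave a comparison of tumours against normal colon, made with edgeR's quasi-likelihood test and adjustment over all 15936 tested genes. In wild-type males 11 collagen genes changed, 5 higher and 6 lower in tumours, where 35.7% of all tested genes changed, 16.5% higher and 19.3% lower. In knock-in males 12 changed, 5 higher and 7 lower, against 20.4% of all genes, 10.4% higher and 9.97% lower. In wild-type females 29 changed, 22 higher and 7 lower, against 49.1% of all genes, of which 25% were higher and 24% lower. The median log2 fold change of the 40 collagen genes was 0.07, 0.05 and 0.94 in that order, and that of all tested genes 0.01 in each. Called members made up 27.5%, 30% and 72.5% of the 40 tested. In males they split in direction, and in wild-type females most of them rose.

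The multiplexin gene Col18a1 was the only member that rose in all 3 comparisons, as 4.13% of tested genes did. It encodes a basement membrane collagen whose end fragment is endostatin, an inhibitor of vessel growth. In wild-type males it held 96.4, 179 and 61.1 CPM in normal colon and 227, 315 and 247 CPM in tumours. In knock-in males normal colon held 103, 92.1 and 132 CPM and tumours 222, 182 and 215 CPM. In wild-type females normal colon held 21.8, 27.3 and 18.9 CPM and tumours 179, 211 and 231 CPM. Tumour and normal libraries did not overlap in any of these backgrounds, and the normal levels of wild-type females were the lowest. The log2 fold changes were 1.22 (SE 0.27, adjusted p 0.00222), 0.92 (SE 0.27, adjusted p 0.0238) and 3.19 (SE 0.29, adjusted p 4.25e-07). The call in knock-in males was lost without knock-in male normal replicate 1 or 2 or tumour replicate 1 or 3, with adjusted p up to 0.0952.

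Lower in all 3 comparisons were Col14a1, Col8a1, Col8a2 and Col4a6, as were 6.11% of tested genes. Col14a1 encodes a FACIT of dense connective tissue. It held 64.0, 51.8 and 60.2 CPM in normal colon of wild-type males and 13.3, 11.3 and 18.5 CPM in their tumours. In knock-in males it held 62.6, 50.9 and 46.5 CPM in normal colon and 19.9, 33.3 and 26.7 CPM in tumours, and in wild-type females 56.5, 46.0 and 70.1 CPM and 14.8, 17.5 and 24.6 CPM. Every tumour library lay below every normal library, and the log2 fold changes were -2.001 (SE 0.22, adjusted p 7.32e-06), -0.9995 (SE 0.21, adjusted p 0.00489) and -1.59 (SE 0.22, adjusted p 1.08e-05). These calls held with each library left out in turn.

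Col8a1 and Col8a2 encode the chains of type VIII collagen, a short network collagen of vessel walls and smooth muscle. Col8a1 held 14.5 to 15.5 CPM in normal colon of wild-type males and 4.46 to 6.17 CPM in their tumours (log2 fold change -1.498, SE 0.22, adjusted p 6.72e-05). In wild-type females it fell from 14.4 to 16.6 CPM to 6.65 to 10.1 CPM (log2 fold change -0.83, SE 0.21, adjusted p 0.00326). In knock-in males normal colon held 22.04, 25.9 and 15.98 CPM and tumours 10.1, 17.3 and 12.7 CPM, so that the ranges overlapped (-0.67, SE 0.20, adjusted p 0.0265). That call was lost without knock-in male normal replicate 2 or tumour replicate 1 or 3, with adjusted p up to 0.0754. Col8a2 was low everywhere, with 5, 1 and 4 counts in the wild-type male tumours against 42, 18 and 60 in normal colon, and its log2 fold changes were -3.07 (SE 0.64), -2.85 (SE 0.58) and -2.16 (SE 0.76). In wild-type females that call was lost without normal replicate 1 or 2 or tumour replicate 2 or 3 (adjusted p up to 0.0934).

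Type IV collagen, the sheet of the basement membrane, is built from chains whose genes lie in head-to-head pairs. In tumours of wild-type females 1 pair was lower and 1 higher, while in males Col4a6 was the only gene of these pairs that passed. Col4a6 and Col4a5, 1308 bases apart on chromosome X, encode the chains that surround smooth muscle and some epithelia. Col4a6 held 13.6, 7.18 and 17.5 CPM in normal colon of wild-type males and 1.87, 3.78 and 5.06 CPM in their tumours, without overlap. Its log2 fold changes were -1.86 (SE 0.60, adjusted p 0.0241) in wild-type males, -1.67 (SE 0.57, adjusted p 0.048) in knock-in males and -2.79 (SE 0.72, adjusted p 0.00381) in wild-type females. In wild-type females it held 5.87, 3.76 and 7.89 CPM in normal colon and 0.679, 1.17 and 0.652 CPM in tumours, also apart. In knock-in males the tumours held 8.91, 2.54 and 1.86 CPM and overlapped normal colon (8.69, 27.01 and 6.74 CPM). There the call was lost without normal replicate 2 or tumour replicate 2 or 3, and in wild-type males without normal replicate 3 or tumour replicate 1 or 2, with adjusted p up to 0.288 and 0.11. With the replicate number as a block, the adjusted p of Col4a6 in wild-type males was 0.0547 and the call was lost. Col4a5 was lower in wild-type female tumours (log2 fold change -1.29, SE 0.40, adjusted p 0.0124), a call lost without tumour replicate 2 or 3 (adjusted p up to 0.0588). Its levels there were 15.8, 12.1 and 16.7 CPM in normal colon and 9.50, 4.33 and 4.56 CPM in tumours, without overlap. In males Col4a5 held 25.9, 16.8 and 34.6 CPM and 12.2, 11.9 and 17.4 CPM in wild-type and 25.8, 33.3 and 18.4 CPM and 30.7, 12.9 and 10.6 CPM in knock-in normal colon and tumours, and its log2 fold changes of -0.88 (SE 0.37) and -0.51 (SE 0.36) did not pass.

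The ubiquitous pair Col4a1 and Col4a2, whose annotated genes overlap by 22 bases at their starts on chromosome 8, was higher in tumours of wild-type females. Col4a1 rose in wild-type females from 144, 127 and 128 CPM to 390, 624 and 684 CPM, and Col4a2 from 62.8, 54.7 and 59.4 CPM to 182, 331 and 349 CPM, with log2 fold changes of 2.09 (SE 0.20, adjusted p 3.7e-07) and 2.28 (SE 0.24, adjusted p 1.09e-06). In wild-type males Col4a1 held 421, 546 and 415 CPM in normal colon and 554, 717 and 584 CPM in tumours, and Col4a2 227, 286 and 236 CPM and 290, 431 and 314 CPM. In knock-in males Col4a1 held 635, 420 and 556 CPM and 531, 642 and 629 CPM, and Col4a2 362, 230 and 361 CPM and 257, 331 and 346 CPM. Male tumours lay above normal colon without overlap in the wild type and overlapped it in the knock-in, and no change passed for either gene in males, with log2 fold changes from -0.03 to 0.46. Col4a3 and Col4a4, 71 bases apart on chromosome 1, encode the chains best known from the kidney filter. They held 1.63 to 6.07 CPM and 0.476 to 4.50 CPM over the 21 libraries and passed in no comparison.

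The promoter windows of Col8a1 and Col4a6 are shown because both genes fell in all 3 tumour comparisons and no annotated exon overlaps the windows. They are the 250 bases before the RefSeq start on GRCm38.p6, at chr16:57754738-57754987 and chrX:141474077-141474326, both read 5′ to 3′ on the minus strand. Capitals mark GGGCGG or its reverse complement.
Col8a1: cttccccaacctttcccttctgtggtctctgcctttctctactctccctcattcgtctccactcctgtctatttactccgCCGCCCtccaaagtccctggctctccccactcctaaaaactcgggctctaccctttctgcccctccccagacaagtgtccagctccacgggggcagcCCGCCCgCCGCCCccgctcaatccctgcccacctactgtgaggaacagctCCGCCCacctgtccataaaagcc
Col4a6: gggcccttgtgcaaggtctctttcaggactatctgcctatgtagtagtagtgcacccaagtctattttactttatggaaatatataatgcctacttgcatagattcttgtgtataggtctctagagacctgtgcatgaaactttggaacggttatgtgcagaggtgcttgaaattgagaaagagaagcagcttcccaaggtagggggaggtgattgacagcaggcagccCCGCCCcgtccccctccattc
GGGCGG is the letter sequence of a GC box. It was searched on both strands together with the CCAAT box, the TATA box letters TATAAA and the CArG box, the motif of serum response factor, and of these only GGGCGG occurs in either window, 4 times for Col8a1 and 1 time for Col4a6. Across the 38 windows that matched 35 of the 44 genes, 57.9% held GGGCGG against 32.7% of 32851 mouse windows, and 2.63% held a CArG box against 1.47%. CCAAT was in 34.2% against 33.8% and TATAAA in 13.2% against 12.4%. A match describes the letters only.

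**Figure D2:**
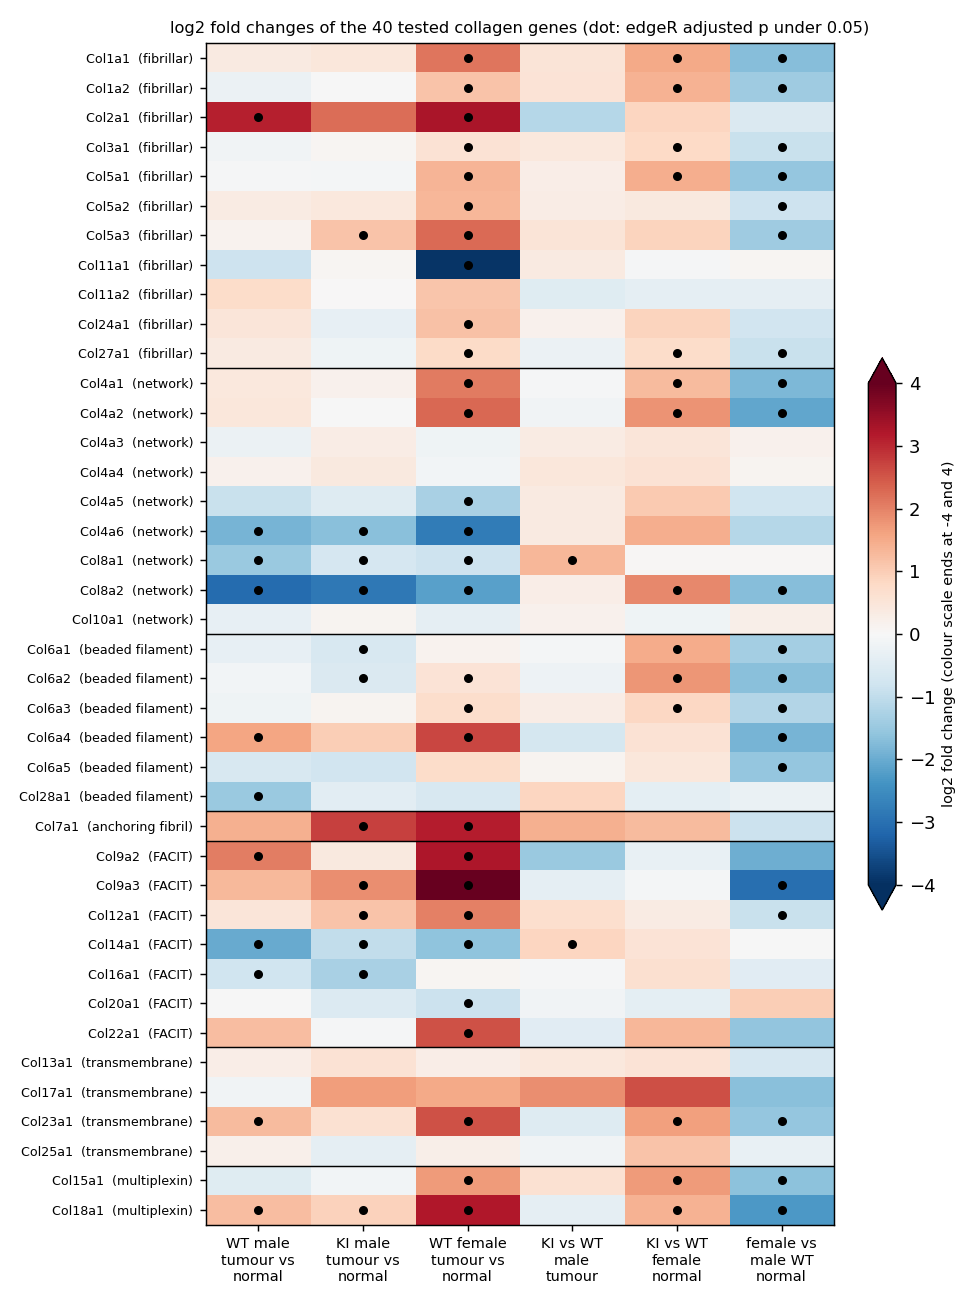
Log2 fold changes (colour, red higher and blue lower in the group named first) of the 40 tested collagen genes (rows, with class) in 6 comparisons (columns). Dots mark an edgeR adjusted p under 0.05. Col18a1 is the only row with red and a dot in all 3 tumour columns, the wild-type female tumour column has 29 dots, and the last column has 20, all blue. The fold changes of Col2a1 and Col11a1 in wild-type females rest on 3 or fewer counts over a whole group.

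Among the fibrillar genes, 10 of 11 changed in wild-type female tumours, 9 higher, and 1 of 11 in each male comparison. Col1a1 and Col1a2 encode type I collagen, the main fibril of scar and tumour stroma. In wild-type females Col1a1 rose from 234, 152 and 154 CPM to 423, 1021 and 915 CPM (log2 fold change 2.12, SE 0.30, adjusted p 2.16e-05). Col1a2 rose from 200, 159 and 176 CPM to 305, 471 and 408 CPM (1.15, SE 0.20, adjusted p 9.84e-05). Of the tumours, replicate 1, the one without a late running number, was the lowest for each gene, though above every normal library. In wild-type males Col1a1 held 489, 677 and 604 CPM in normal colon and 698, 824 and 730 CPM in tumours, which did not overlap, and in knock-in males 805, 933 and 639 CPM and 722, 1355 and 1165 CPM, which did. Its log2 fold changes of 0.35 (SE 0.29, adjusted p 0.37) and 0.45 (SE 0.29, adjusted p 0.278) did not pass. Col1a2 held 451, 487 and 489 CPM and 342, 455 and 424 CPM in wild-type males and 611, 760 and 450 CPM and 493, 703 and 600 CPM in knock-in males, normal colon first, with overlap in both and log2 fold changes of -0.23 (SE 0.19) and -0.02 (SE 0.19).

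Col5a1 and Col5a2 encode type V collagen, which nucleates type I fibrils, and rose in wild-type female tumours by 1.36 (SE 0.23, adjusted p 0.000126) and 1.31 (SE 0.18, adjusted p 1.16e-05) on the log2 scale. Col5a1 went from 58.3, 43.0 and 61.9 CPM to 80.1, 159 and 179 CPM and Col5a2 from 75.7, 61.4 and 69.6 CPM to 158, 179 and 178 CPM, both without overlap. In wild-type males Col5a1 held 152, 159 and 171 CPM in normal colon and 129, 178 and 163 CPM in tumours, and Col5a2 120, 148 and 101 CPM and 128, 185 and 150 CPM. In knock-in males the levels were 207, 199 and 195 CPM and 151, 214 and 199 CPM for Col5a1, and 159, 155 and 119 CPM and 139, 222 and 214 CPM for Col5a2. All 4 of these male comparisons overlapped and none passed. Col5a3, the third chain of this type, rose in wild-type female tumours by 2.25 (SE 0.38, adjusted p 0.000121), from 11.1, 7.80 and 14.9 CPM to 20.5, 66.7 and 72.6 CPM. It rose in knock-in males too (1.15, SE 0.36, adjusted p 0.0323), where tumour replicates 2 and 3 held 65.6 and 50.2 CPM and replicate 1, at 29.2 CPM, lay near the normal libraries (19.9 to 24.4 CPM). That call was lost without any 1 of 5 libraries, all of that comparison but tumour replicate 1 (adjusted p up to 0.154). In wild-type males it held 29.2, 33.4 and 28.3 CPM and 34.3, 41.9 and 25.95 CPM, with overlap.

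Col3a1, the fibril of soft and healing tissue, held 1001, 1102 and 1116 CPM in normal colon of wild-type males and 845, 986 and 1063 CPM in their tumours. In knock-in males it held 1316, 1566 and 852 CPM and 1140, 1561 and 1199 CPM, and in wild-type females 645, 530 and 544 CPM and 679, 985 and 912 CPM. The male ranges overlapped and the female ranges did not. Its rise in wild-type females was 0.58 on the log2 scale (SE 0.19, adjusted p 0.0158), a call lost without normal replicate 2 or 3 or tumour replicate 2 or 3 (adjusted p up to 0.0744). The cartilage fibril genes were rare. Col2a1 had 11, 5 and 15 counts in wild-type male tumours against 5, 1 and 0 in normal colon, and Col11a1 had 0, 1 and 1 counts in wild-type female tumours against 25, 9 and 12 in normal colon, with adjusted p of 0.0091 and 0.00874.

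Type VI collagen surrounds cells with a filament built from the products of Col6a1, Col6a2 and a long chain, which is Col6a3, Col6a4, Col6a5 or Col6a6. The long chain Col6a4 rose in wild-type male tumours from 27.7, 38.9 and 12.8 CPM to 72.9, 80.3 and 86.0 CPM (log2 fold change 1.58, SE 0.54, adjusted p 0.0325) and in wild-type females from 6.63, 8.36 and 7.27 CPM to 49.5, 41.4 and 50.3 CPM (2.68, SE 0.59, adjusted p 0.00146). The male call was lost without any 1 of 5 libraries, all but normal replicate 2 (adjusted p up to 0.135). Col6a1 and Col6a2 fell in knock-in male tumours by 0.63 (SE 0.21, adjusted p 0.0389) and 0.59 (SE 0.20, adjusted p 0.049) on the log2 scale. For Col6a1 tumour replicate 1 held 182 CPM and replicates 2 and 3 held 130 and 114 CPM, all below the normal libraries at 215 to 221 CPM. Without tumour replicate 2 or 3, or normal replicate 1 or 3, neither call held (adjusted p up to 0.16), and the call of Col6a1 was also lost without normal replicate 2.

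In wild-type males Col6a1 and Col6a2 did not pass. Col6a1 held 183, 184 and 191 CPM in normal colon of wild-type males and 130, 143 and 174 CPM in their tumours, which lay lower without overlap, at -0.32 on the log2 scale (SE 0.21, adjusted p 0.24). Col6a2 held 154, 162 and 144 CPM and 122, 134 and 175 CPM there, and 184, 174 and 200 CPM and 151, 118 and 102 CPM in knock-in males. Only the knock-in groups were apart for Col6a2. Col6a3, the usual long chain, held 266, 248 and 299 CPM and 229, 220 and 264 CPM in wild-type males and 244, 318 and 249.1 CPM and 312, 336 and 220 CPM in knock-in males, with overlap in both. In wild-type females it rose from 127, 100.0 and 135 CPM to 143, 226 and 227 CPM without overlap (log2 fold change 0.72, SE 0.19, adjusted p 0.00427). In knock-in males Col6a4 held 23.3, 18.3 and 33.1 CPM and 100, 14.4 and 32.4 CPM, of which tumour replicate 1 was highest and tumour replicate 2 lowest (0.98, SE 0.54, adjusted p 0.201). Col6a5 held 3.21 to 18.2 CPM over all libraries and passed in no tumour comparison.

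Of the fibril-associated genes, Col12a1, whose product bridges fibrils under mechanical load, rose in knock-in males and wild-type females. In wild-type females normal colon held 101, 110 and 75.8 CPM and tumours 288, 432 and 448 CPM, without overlap (log2 fold change 2.02, SE 0.29, adjusted p 2.22e-05). In knock-in males normal colon held 207, 178 and 163 CPM and tumours 204, 539 and 457 CPM, so that replicate 1 lay within the normal range (1.13, SE 0.28, adjusted p 0.0114). That call was lost without tumour replicate 2 or normal replicate 3 (adjusted p up to 0.0682). Wild-type males held 150, 243 and 143 CPM and 246, 280 and 229 CPM, with overlap (0.49, SE 0.28, adjusted p 0.178). Col16a1, a FACIT of fibroblasts and smooth muscle, fell in knock-in males from 46.7, 37.3 and 69.5 CPM to 22.6, 20.5 and 19.6 CPM (-1.29, SE 0.26, adjusted p 0.00404). It fell in wild-type males by 0.79 (SE 0.26, adjusted p 0.0266), a call lost without normal replicate 3 or tumour replicate 1 or 2 (adjusted p up to 0.11), and in wild-type females its log2 fold change was 0.08 (SE 0.26, adjusted p 0.819).

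Col9a3, a cartilage FACIT chain, had the largest fold change of any member in wild-type females. It had 11, 4 and 4 counts there in normal colon and 192, 148 and 288 in tumours, or 0.465, 0.557 and 0.619 CPM against 26.1, 17.3 and 31.3 CPM, or 5.54 on the log2 scale (SE 0.73, adjusted p 1.1e-05). In wild-type males normal replicate 2 held 9.95 CPM and the other normal libraries 1.98 and 0.994 CPM, against 8.19 to 12.02 CPM in tumours (1.29, SE 0.57, adjusted p 0.0879). In knock-in males it was called higher (1.87, SE 0.59, adjusted p 0.0349), a call lost on omission of any 1 of the 6 libraries (adjusted p up to 0.126). Col9a2, a second chain of the same collagen, held 3.26, 4.12 and 0.597 CPM in normal colon of wild-type males and 8.995, 14.8 and 10.03 CPM in their tumours, and 1.23, 0.279 and 0.155 CPM and 8.28, 5.96 and 5.87 CPM in wild-type females. It was called higher in both, without overlap (2.03, SE 0.75, adjusted p 0.0419, and 3.24, SE 0.85, adjusted p 0.00434), and the male call was lost without any 1 of 5 libraries, all but normal replicate 2 (adjusted p up to 0.144), and with the replicate block (adjusted p 0.0521). Col9a1, the third chain, was too rare to test.

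The transmembrane gene Col23a1 rose from 9.30, 8.98 and 5.17 CPM to 20.4, 16.6 and 19.1 CPM in wild-type males (1.25, SE 0.27, adjusted p 0.00172) and from 2.83, 1.81 and 3.40 CPM to 15.9, 14.9 and 16.1 CPM in wild-type females (2.53, SE 0.30, adjusted p 2.74e-06). Tumours and normal colon did not overlap in either, and both calls held without each library in turn. Col15a1, the second multiplexin gene, rose in wild-type female tumours from 19.3, 20.3 and 21.2 CPM to 26.3, 83.5 and 88.2 CPM (1.71, SE 0.32, adjusted p 0.000291), with tumour replicate 1 closest to normal colon. In males it held 60.6, 76.3 and 53.9 CPM and 43.97, 47.7 and 44.3 CPM in the wild type and 60.1, 82.9 and 81.8 CPM and 54.3, 91.5 and 63.0 CPM in the knock-in, where no change passed (-0.49, SE 0.31, and -0.11, SE 0.30).

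The remaining members accounted for few calls. Col28a1, a beaded filament gene, was lower in wild-type male tumours alone among the 3 comparisons (-1.49, SE 0.36, adjusted p 0.00355), at 1.01 to 1.75 CPM against 3.14 to 3.58 CPM. In wild-type females Col24a1, Col27a1 and Col22a1 rose and Col20a1 fell. Of these, the call of Col24a1 was lost without normal replicate 2, that of Col27a1 without normal replicate 1 or 2 or tumour replicate 3, and that of Col20a1 without normal replicate 1 or 2 or tumour replicate 2 or 3. Passing in none of the 3 were 8 members, which are Col4a3, Col4a4, Col6a5, Col10a1, Col11a2, Col13a1, Col17a1 and Col25a1. Of these Col10a1, best known from growth plate cartilage, held 5.23 to 10.4 CPM in all libraries.

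The stability of these counts differed between the backgrounds. With each library left out in turn, 21 of the 29 calls in wild-type females held, 7 of the 11 in wild-type males and 3 of the 12 in knock-in males, namely Col14a1, Col8a2 and Col16a1. The count in knock-in males was 5 without normal replicate 2 or tumour replicate 2 or 3, 7 without normal replicate 1 and 6 without normal replicate 3. It was 4 when only the compared groups entered the fit, where 4.72% of all genes passed, against 20.4% in the main fit. The count in wild-type males was 7 without normal replicate 3 or tumour replicate 1. With an offset for GC content and length, 6 of 10 calls in knock-in males were higher, against 5 of 12 here. Without the 7 libraries high in Krt5, a choice made after the data were seen, 6 members passed in wild-type males. In wild-type females, which lost no library, 31 passed, so the omission does not test that comparison. Of all genes, 19.1% and 44.7% passed in wild-type males and females. In knock-in males 1 tumour library remained, assumed to vary like the other groups, so no count is given.

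Markers of stromal cells moved with these comparisons. All 10 smooth muscle markers fell in every tumour comparison, with medians of -3.91, -2.51 and -4.04 on the log2 scale, and their summed level went from 3222 to 10690 CPM in wild-type male normal colon to 334 to 975 CPM in the tumours. In knock-in males it went from 5175 to 9151 CPM to 1029 to 1276 CPM, and in wild-type females from 2220 to 5108 CPM to 270 to 328 CPM. Of the 8 fibroblast markers, 6, 5 and 6 fell and 0, 1 and 1 rose, and their sums were 910 to 1147 against 508 to 606 CPM, 772 to 951 against 630 to 826 CPM and 782 to 1075 against 483 to 578 CPM. Of 6 activated fibroblast markers, 2, 2 and 3 rose and 2, 1 and 2 fell, and of 5 pericyte markers, 0, 1 and 2 rose and 3, 1 and 2 fell. Endothelial markers rose in 1, 0 and 4 of 6, with sums of 47.9 to 78.5 CPM in normal colon of wild-type females and 77.2 to 163 CPM in their tumours. Of 4 enteric glia markers 3, 1 and 1 were lower, and of 5 enteric neuron markers 3, 2 and 3 were lower and 0, 0 and 1 higher, while 0 of the 2 tested adipocyte markers were called. Mesothelial markers were lower in 0, 1 and 4 of 5 and higher in 1, 0 and 0, and leukocyte markers higher in 1, 0 and 2 of 5 and lower in 0, 1 and 1. Of the 8 colon epithelium markers 7, 1 and 8 fell. No smooth muscle or fibroblast marker was at 0 in any group. The part of these cell types in the lower levels of Col14a1, Col8a1, Col8a2, Col4a6 and Col16a1 was not tested, nor was that of the endothelium in the higher levels of Col4a1, Col4a2, Col15a1 and Col18a1.

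**Figure D3:**
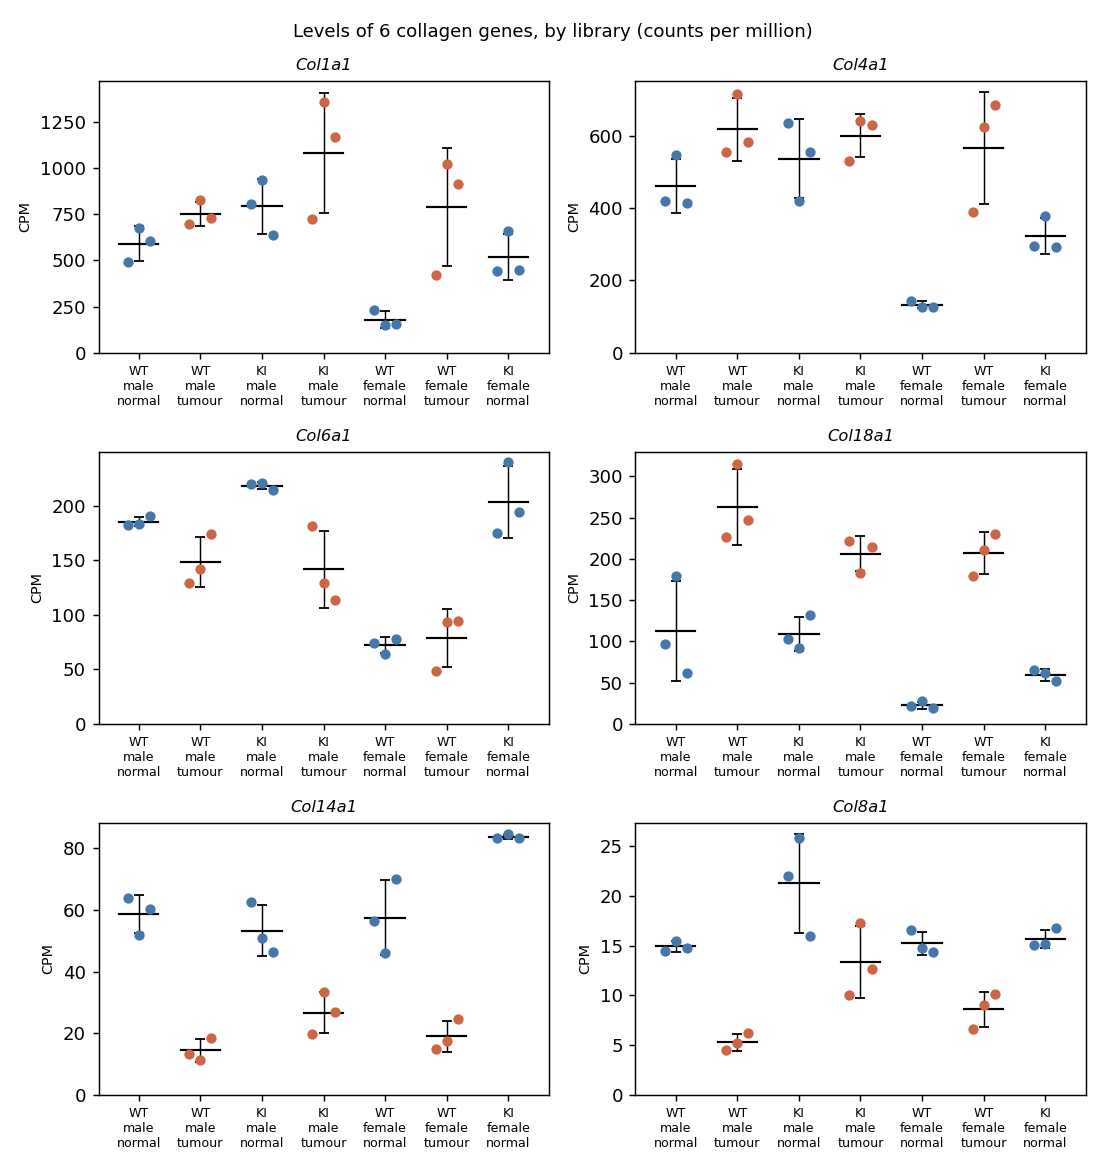
Levels of 6 collagen genes (y axes, CPM from 0) in the 21 libraries by group (x axes), with normal colon in blue, tumours in orange, and bars for the mean and SD of 3 libraries. Col18a1 is higher and Col14a1 lower in every tumour library than in the normal libraries of the same background, and Col1a1, Col4a1 and Col18a1 are lowest in wild-type female normal colon.

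Normal colon was then compared between the sexes and genotypes. The comparisons with wild-type females share their 3 normal libraries with the tumour comparison in wild-type females, so their results are not independent of each other. Against wild-type male normal colon, 20 collagen genes were lower in females and 0 higher, where 15.9% of all genes changed 10.2% lower and 5.74% higher. Against knock-in female normal colon, 14 were higher in the knock-in and 0 lower, where 16% of all genes changed and 8.97% were higher. The median log2 fold changes of the 40 genes were -1.02 and 0.84, against -0.00 and 0.02 for all genes. By contrast, knock-in and wild-type male normal colon differed in 0 members (2 with an unadjusted p under 0.05, 0 by DESeq2), as 0.0126% of all genes did, 0.00628% in each direction. Between knock-in females and males 0 passed (14 with an unadjusted p under 0.05, 5 by DESeq2, 2 without knock-in male replicate 2), where 0.584% of all genes did. By DESeq2 3.66% of all genes passed there.

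Lower in wild-type female than in wild-type male normal colon were 7 of 11 fibrillar, 3 of 9 network, 5 of 6 beaded filament, 2 of 7 FACIT, 1 of 4 transmembrane and both multiplexin genes tested, but not the anchoring fibril gene. Differences between these classes were not tested. Col3a1, the most abundant, held 645, 530 and 544 CPM in wild-type females and 910, 1149 and 920 CPM in knock-in females, and Col1a2 200, 159 and 176 CPM and 417, 566 and 405 CPM. Both were lower than in wild-type males (-0.90, SE 0.19, adjusted p 0.00392, and -1.42, SE 0.20, adjusted p 0.000164) and higher in the knock-in (0.79, SE 0.19, adjusted p 0.00939, and 1.38, SE 0.20, adjusted p 0.000264). The call of Col3a1 between the genotypes was lost without wild-type replicate 2 or knock-in replicate a (adjusted p up to 0.0605). Col1a1 held 234, 152 and 154 CPM in wild-type females, 489, 677 and 604 CPM in wild-type males and 444, 661 and 445 CPM in knock-in females. Its log2 fold changes were -1.71 (SE 0.30, adjusted p 0.00126) for females against males and 1.52 (SE 0.30, adjusted p 0.0029) for knock-in against wild-type females. Col4a1 held 127 to 144 CPM, 415 to 546 CPM and 293 to 379 CPM in the same order, with log2 fold changes of -1.79 (SE 0.20, adjusted p 1.86e-05) and 1.28 (SE 0.19, adjusted p 0.000416). Col4a2 held 62.8, 54.7 and 59.4 CPM in wild-type and 184, 255 and 180 CPM in knock-in females (1.80, SE 0.24, adjusted p 0.000143), and Col18a1 21.8, 27.3 and 18.9 CPM and 65.5, 61.6 and 51.6 CPM (1.39, SE 0.28, adjusted p 0.00356). The difference between the sexes was -2.08 (SE 0.24, adjusted p 3.72e-05) for Col4a2 and -2.31 (SE 0.29, adjusted p 8.03e-05) for Col18a1. Col15a1, whose product ties the basement membrane of vessels and muscle to fibrils, held 19.3, 20.3 and 21.2 CPM in wild-type females, 53.9 to 76.3 CPM in wild-type males and 58.0 to 76.8 CPM in knock-in females (-1.65, SE 0.32, adjusted p 0.00247, and 1.70, SE 0.32, adjusted p 0.00222). Wild-type females lay below both other groups without overlap for Col1a1, Col1a2, Col3a1, Col4a1, Col4a2, Col15a1 and Col18a1. Col9a3, at 0.465 to 0.619 CPM, was also lower than in males (-3.02, SE 0.73, adjusted p 0.0106), a call lost without male replicate 2 or female replicate 1 (adjusted p up to 0.0703).

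Among the beaded filament genes, Col6a1 and Col6a2 were low in wild-type female normal colon and also in tumours of wild-type females. Col6a1 held 74.1, 63.8 and 78.1 CPM in normal colon of wild-type females, 183, 184 and 191 CPM in wild-type males and 176, 240 and 195 CPM in knock-in females. The log2 fold changes were -1.37 (SE 0.21, adjusted p 0.00038) and 1.496 (SE 0.21, adjusted p 0.000239). Col6a2 held 53.0, 42.2 and 48.3 CPM in wild-type and 125, 193 and 166 CPM in knock-in females (1.75, SE 0.21, adjusted p 6.21e-05). In the tumours of wild-type females Col6a1 held 48.1, 93.0 and 94.8 CPM, which spanned the normal range (0.13, SE 0.21, adjusted p 0.637). Col6a2 held 45.5, 74.5 and 88.2 CPM there and rose by 0.54 (SE 0.21, adjusted p 0.0412), a call lost without 5 of the 6 libraries, all but tumour replicate 1 (adjusted p up to 0.245). Between the sexes, tumours of wild-type females were lower than those of wild-type males in Col6a1 (-0.92, SE 0.21, adjusted p 0.0451) and Col6a2 (-1.05, SE 0.21, adjusted p 0.0283), the 2 members called in that comparison, where 0.86% of all genes were. Without male tumour replicate 2 or 3 or female tumour replicate 1 or 2 neither call held, and that of Col6a1 was lost without female tumour replicate 3 as well (adjusted p up to 0.199). With the GC and length offset 0 members passed, where 0.27% of all genes did, and by DESeq2 4 passed, where 5.24% did.

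Not all members were low in wild-type females. Col14a1 held 46.0 to 70.1 CPM there and 51.8 to 64.0 CPM in wild-type males (-0.03, SE 0.21, adjusted p 0.942), and Col8a1 14.4 to 16.6 CPM against 14.5 to 15.5 CPM (0.03, SE 0.20, adjusted p 0.934). With each library left out in turn, 14 of the 20 calls between the sexes and 10 of the 14 between the genotypes held. With the GC and length offset 16 and 11 passed, where 14.1% of all genes did in each. Of the 16 between the sexes 15 were lower and 1 higher in females. By DESeq2, with the late running number and with only the compared groups, 1 was higher too. Without the libraries high in Krt5 16 passed between the sexes, where 4.15% of all genes did. That omission left 1 knock-in female normal library, so no count between the genotypes is given. Over the 40 genes the log2 difference between the sexes had a Pearson r of -0.46 with GC content, and that between genotypes 0.23, against -0.23 and 0.25 over all 15789 tested genes with a GC value. These points share the same 3 libraries, and the collagen genes had a median GC content of 55.4% against 49.8% for all tested genes.

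Windows of 2 genes called low in wild-type female normal colon are shown as they lie far apart in base composition. They are the 250 bases before the RefSeq starts of Col5a1, at chr2:27886175-27886424 with 76.4% GC, and of Col3a1, at chr1:45311288-45311537 with 35.2% GC, on the plus strand of GRCm38.p6. Capitals mark GGGCGG, or its reverse complement, in Col5a1 and TATAAA in Col3a1.
Col5a1: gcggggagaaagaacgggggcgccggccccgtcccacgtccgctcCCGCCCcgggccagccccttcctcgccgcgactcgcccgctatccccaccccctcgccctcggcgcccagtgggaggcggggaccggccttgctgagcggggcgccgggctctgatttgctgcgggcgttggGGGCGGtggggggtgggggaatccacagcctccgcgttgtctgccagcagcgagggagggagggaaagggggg
Col3a1: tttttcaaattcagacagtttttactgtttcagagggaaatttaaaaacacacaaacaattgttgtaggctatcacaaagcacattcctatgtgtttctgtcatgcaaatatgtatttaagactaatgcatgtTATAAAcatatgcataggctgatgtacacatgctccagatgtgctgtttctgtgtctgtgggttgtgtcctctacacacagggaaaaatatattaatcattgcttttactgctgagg
Neither window overlaps an annotated exon. CCAAT and the CArG box are in neither.

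Several lists of stromal markers held genes that were lower in wild-type female normal colon, where 10.2% of all genes were lower than in males. Against knock-in females 8.97% of all genes were lower in wild-type females. The 6 endothelial markers summed to 47.9 to 78.5 CPM in wild-type female normal colon, 110 to 157 CPM in wild-type males and 121 to 132 CPM in knock-in females, and 5 of 6 were lower than in males and 4 of 6 lower than in knock-in females. Smooth muscle markers summed to 2220 to 5108, 3222 to 10690 and 7774 to 10820 CPM, with 3 and 5 of 10 lower in wild-type females. Of the 8 fibroblast markers 0 were lower than in males (1 with an unadjusted p under 0.05) and 1 was lower than in knock-in females, and they summed to 782 to 1075, 910 to 1147 and 1293 to 1464 CPM. Of 6 activated fibroblast markers 4 were lower than in males and 2 lower than in knock-in females, and of 5 pericyte markers 3 and 2 were. Mesothelial markers went the opposite way, with 2 of 5 higher than in males and 4 of 5 higher than in knock-in females, at sums of 3.10 to 30.7 CPM in wild-type females, 1.99 to 8.03 CPM in males and 1.69 to 3.51 CPM in knock-in females. Of all these markers only the mesothelial Upk3b was at 0 in all libraries of 1 of these normal groups, the knock-in females. Their part in the collagen differences was not tested.

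Whether the tumour difference depended on sex was tested as an interaction in wild-type mice. The difference was more positive in females for 8 members and less positive for 0, where 1.12% of all genes passed and 0.929% were more positive. They were Col1a1 (1.78 on the log2 scale, SE 0.41), Col1a2 (1.37, SE 0.27), Col5a1 (1.40, SE 0.33), Col4a1 (1.67, SE 0.27), Col4a2 (1.82, SE 0.33), Col9a3 (4.25, SE 0.92), Col15a1 (2.20, SE 0.44) and Col18a1 (1.97, SE 0.39), with adjusted p from 0.00935 to 0.0454. In wild-type tumours none of the 8 passed between the sexes, with log2 differences from -0.34 to 1.24, and in normal colon, whose libraries enter the same interaction, they ran from -3.02 to -1.42. Only Col4a1 kept the interaction call with each library left out in turn. The count fell to 1 without wild-type male tumour replicate 1 or wild-type female tumour replicate 3, and was 2 to 5 without any other library but wild-type male normal replicate 3 (12) and wild-type female tumour replicate 1 (11). With the late running number as a covariate 0 passed, where 0.144% of all genes did. In the tumour comparison of wild-type females 24 passed with it, where 40% of all genes did. Without the libraries high in Krt5 0 passed the interaction, with 18 members at an unadjusted p under 0.05, where 0.0614% of all genes passed.

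The genotype difference in normal colon also depended on sex for some members. It was more positive in females for Col4a1 (1.05, SE 0.27, adjusted p 0.0432), Col4a2 (1.46, SE 0.33, adjusted p 0.0246), Col6a1 (1.26, SE 0.29, adjusted p 0.028) and Col6a2 (1.48, SE 0.29, adjusted p 0.0145), where 2.54% of all genes passed and 1.76% were more positive. DESeq2 called 10. None of the 4 kept the call with each library left out. The count was 0 without wild-type female normal replicate 2 or knock-in female normal replicate a, 1 without replicate 1 of wild-type male or wild-type female normal colon and 2 without knock-in male normal replicate 2.

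Among male tumours the genotypes differed in 2 members, where 14.5% of all genes did. Col8a1 was higher in knock-in tumours (log2 difference 1.34, SE 0.22, adjusted p 0.0035), at 10.1, 17.3 and 12.7 CPM against 4.46, 5.24 and 6.17 CPM without overlap. Col14a1 was higher (0.86, SE 0.22, adjusted p 0.0191), at 19.9, 33.3 and 26.7 CPM against 13.3, 11.3 and 18.5 CPM, also without overlap, and lost the call without wild-type tumour replicate 1 or 2 or knock-in tumour replicate 2 (adjusted p up to 0.11). Omission of any of these 3 left 1 call and that of knock-in tumour replicate 1 gave 5. Both genes had fallen less in knock-in than in wild-type tumours relative to their own normal colon, but the interaction passed for neither (1.002, SE 0.30, adjusted p 0.0712 for Col14a1, and 0.83, SE 0.30, adjusted p 0.106 for Col8a1). No member passed that interaction, where 1.51% of all genes did, 1.14% in the positive direction (3 members with an unadjusted p under 0.05, 1 call by DESeq2 and 1 without knock-in male normal replicate 2). By DESeq2 8.32% of all genes passed that interaction. Smooth muscle markers summed to 1029 to 1276 CPM in the knock-in and 334 to 975 CPM in the wild-type male tumours, with 0 of 10 markers called (7 with an unadjusted p under 0.05). Of 8 fibroblast markers 3 were higher in the knock-in, as were 2 of 6 activated fibroblast and 2 of 5 pericyte markers and 1 of 4 enteric glia markers, and 1 of 5 leukocyte markers was lower. Their part in the result was not tested.

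Chains of 1 collagen need not keep their proportion. Type I collagen is a heterotrimer of Col1a1 and Col1a2 products in excess of the former, and the count ratio of the genes was compared between tumours and normal colon over the 3 backgrounds, by exact permutation within backgrounds (8000 relabellings, two-sided). The ratio of Col1a1 to Col1a2 counts was 1.08, 1.39 and 1.24 in wild-type male normal colon and 2.04, 1.81 and 1.72 in the tumours. In knock-in males it was 1.32, 1.23 and 1.42 in normal colon and 1.46, 1.93 and 1.94 in tumours, and in wild-type females 1.17, 0.957 and 0.874 in normal colon and 1.38, 2.17 and 2.24 in tumours. Tumours lay above normal colon without overlap in each background, by 0.65 on the log2 scale on average (exact permutation p 0.00025, the smallest these relabellings allow, 0.001 adjusted over 4 ratios). Knock-in female normal colon held 1.07, 1.17 and 1.10. Omission of any library left the difference between 0.60 and 0.72.

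The ratio of the long chain Col6a3 to Col6a1 was higher in tumours as well, by 0.50 on the log2 scale (exact permutation p 0.00075, adjusted 0.0015). Its geometric mean went from 1.67 to 2.58 in wild-type females and from 1.23 to 2.05 in knock-in males, both without overlap, and from 1.45 to 1.61 in wild-type males with overlap. The ratio of Col5a1 to Col5a2 was lower in tumours by 0.30, with an exact permutation p of 0.0408 that became 0.0543 on adjustment. Its geometric mean in normal colon was 0.783 in wild-type and 1.65 in knock-in females. The ratio of Col4a1 to Col4a2 did not pass (-0.01, exact permutation p 0.932), a mean over unlike backgrounds, with -0.18 in wild-type females, where the groups were apart, and with overlap in males, at 0.19 in the knock-in and -0.03 in the wild type. Of the 4 ratios it had the narrowest range of group means, from a geometric mean of 1.57 in knock-in female normal colon to 2.25 in wild-type female normal colon.

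**Figure D4:**
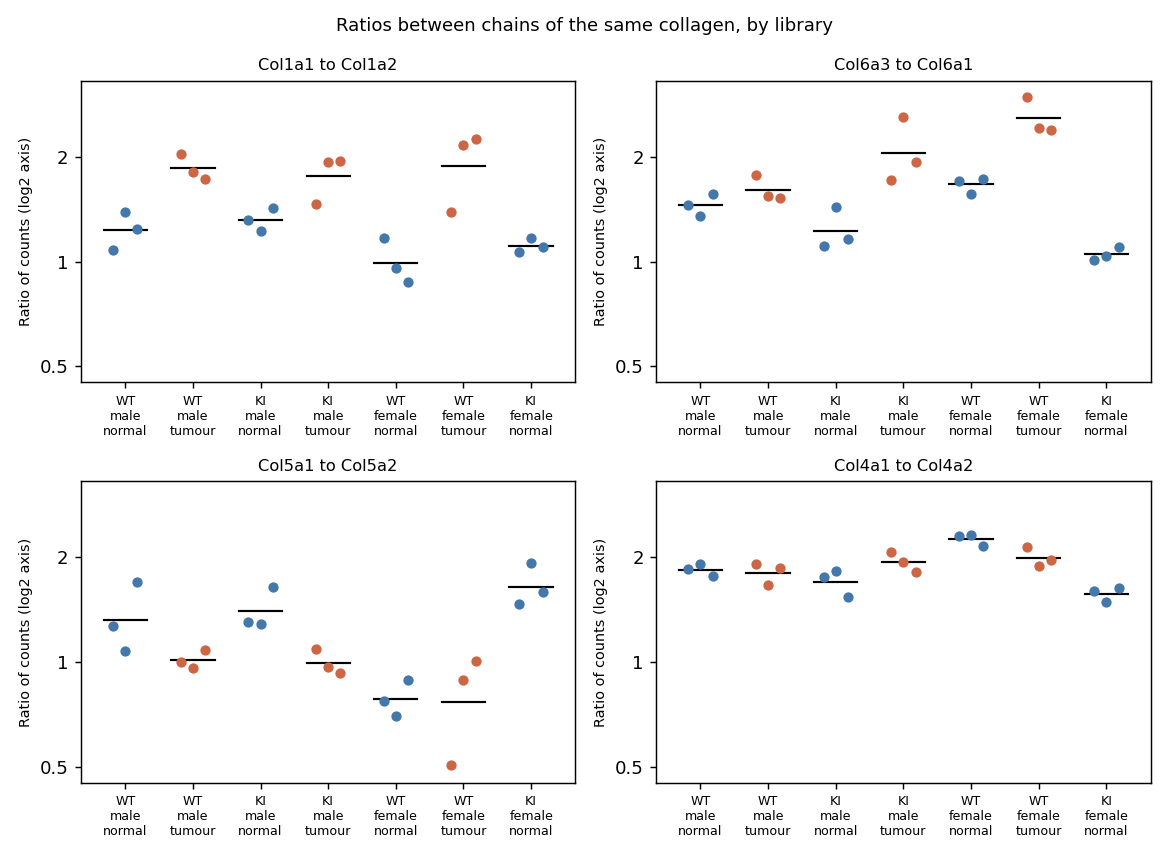
Count ratios between chains of the same collagen (y axes, log2 scale) for each library by group (x axes), with normal colon in blue, tumours in orange and lines at the geometric mean of 3 libraries. For Col1a1 to Col1a2 every tumour library, from 1.38 to 2.24, lies above the normal libraries of its own background, and for Col4a1 to Col4a2 the tumours overlap normal colon in both male backgrounds.

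Col17a1 and Col7a1 encode the collagens of hemidesmosomes and anchoring fibrils, which fix stratified epithelium to its base. Col17a1 passed in no comparison and instead followed single libraries. It held 39.8, 6.51 and 5.47 CPM in normal colon of wild-type males, 30.0, 9.02 and 7.27 CPM in wild-type male tumours, 39.4, 6.64 and 9.16 CPM in knock-in male normal colon and 5.65, 145 and 22.2 CPM in knock-in male tumours. In knock-in female normal colon replicates 1, a and b held 40.8, 5.73 and 51.2 CPM, and the wild-type female libraries 4.60 to 18.9 CPM. The 7 libraries from 22.2 CPM upward were the 7 with Krt5 at 107 CPM or more, and the other 14 were at 18.9 CPM or less. Col7a1 was highest in knock-in male tumour replicate 2 at 72.1 CPM, the library with the most Krt5 (736 CPM), and the other tumours of that group held 6.05 and 28.4 CPM against 6.26, 3.61 and 6.13 CPM in normal colon (log2 fold change 2.75, SE 0.72, adjusted p 0.0165). That call was lost without tumour replicate 2 or normal replicate 2 or 3 (adjusted p up to 0.105). In wild-type males Col7a1 held 6.89, 5.54 and 1.99 CPM in normal colon and 21.8, 9.02 and 7.92 CPM in tumours (1.43, SE 0.71, adjusted p 0.131), and in knock-in female normal colon 6.84, 2.70 and 9.72 CPM. In wild-type females, where Krt5 stayed at 35.1 CPM or less, Col7a1 rose from 2.62, 2.09 and 3.56 CPM to 14.1, 36.1 and 22.3 CPM without overlap (3.15, SE 0.78, adjusted p 0.00317), and this call held without each library in turn.

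**Figure D5:**
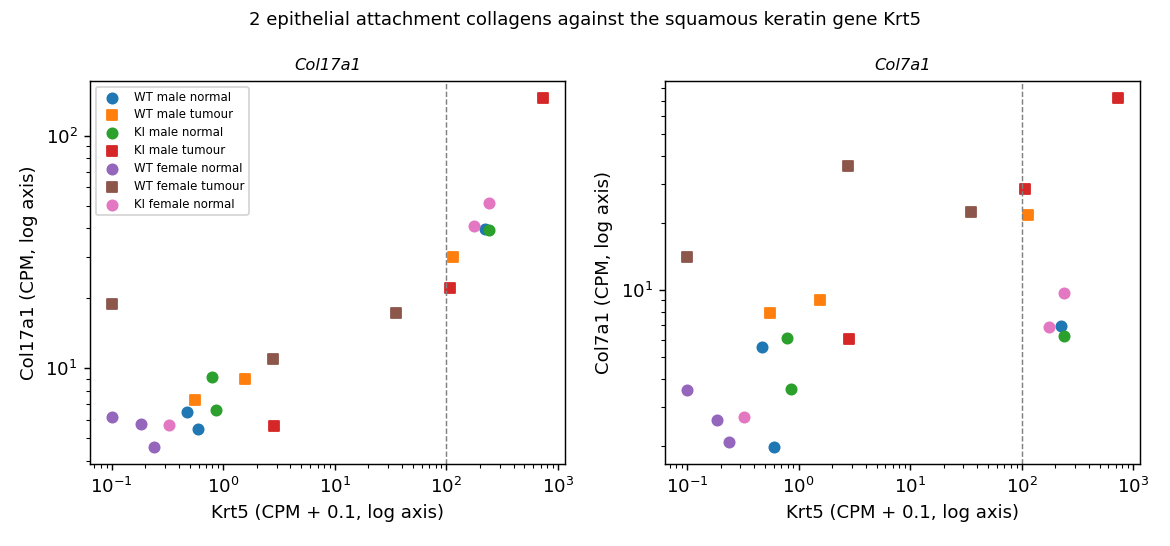
Col17a1 (left) and Col7a1 (right) against Krt5 in the 21 libraries, all in CPM on log axes with 0.1 added to Krt5, normal colon as circles and tumours as squares. The dashed line marks 100 CPM of Krt5. The 7 libraries to its right have the 7 highest Col17a1 levels, whereas Col7a1 is also high in wild-type female tumours to its left.

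Genes that process, bind and break down collagen were taken from lists. Of 30 genes of synthesis and cross-linking, 4 rose and 5 fell in wild-type male tumours, 2 rose and 3 fell in knock-in male tumours, and 14 rose and 3 fell in wild-type female tumours, with medians of -0.04, 0.10 and 0.60 on the log2 scale. The shares called were 30%, 16.7% and 56.7%, near the 35.7%, 20.4% and 49.1% of all tested genes. Lox, which cross-links fibrils, rose by 2.32 (SE 0.36, adjusted p 5.47e-05) in wild-type females, and its log2 fold change was 0.02 (SE 0.35, adjusted p 0.979) in wild-type and 0.95 (SE 0.34, adjusted p 0.0554) in knock-in males. Bmp1, which trims procollagen, rose in wild-type females (1.963, SE 0.24, adjusted p 3.18e-06) and wild-type males (1.06, SE 0.22, adjusted p 0.00145). The lysyl hydroxylase Plod2 fell in all 3 comparisons (-0.85, SE 0.17, -0.51, SE 0.16, and -1.07, SE 0.17). In knock-in against wild-type female normal colon 8 of the 30 were higher and 2 lower, so that 33.3% were called against 16% of all tested genes.

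Of 16 partners of type IV collagen in the basement membrane, 13 rose and 1 fell in wild-type female tumours, 6 rose and 2 fell in wild-type males, and 4 rose and 1 fell in knock-in males. The shares called were 87.5%, 50% and 31.2% in that order, against 49.1%, 35.7% and 20.4% of all tested genes. Pxdn, the peroxidase that links type IV networks, rose in all 3 by 0.63 (SE 0.15), 0.57 (SE 0.15) and 2.39 (SE 0.16). Knock-in female normal colon exceeded wild-type female normal colon in 10 of the 16 and was lower in 0, so that 62.5% were called against 16% of all tested genes. Of 9 tested genes of collagen breakdown and its inhibition, 4, 3 and 8 rose and 0 fell in wild-type males, knock-in males and wild-type females. These are 44.4%, 33.3% and 88.9%, against 35.7%, 20.4% and 49.1% of all tested genes. The list holds 3 inhibitors of the metalloproteinases, of which Timp1 rose in wild-type males (1.69, SE 0.39, adjusted p 0.00267) and Timp1, Timp2 and Timp3 in wild-type females. The collagenase gene Mmp13 rose by 5.25 (SE 1.19, adjusted p 0.00913) in knock-in males and 6.58 (SE 1.29, adjusted p 0.00066) in wild-type females. Of 12 collagen receptors 2 rose and 2 fell, 2 rose and 1 fell, and 4 rose and 2 fell, so that 33.3%, 25% and 50% were called against 35.7%, 20.4% and 49.1% of all tested genes. The integrin chain Itga2, mostly of epithelium, rose in all 3 (0.72, SE 0.24, 1.33, SE 0.24, and 1.30, SE 0.24), and Ddr2, the fibrillar collagen receptor of mesenchymal cells, fell in all 3 (-1.88, SE 0.22, -0.93, SE 0.21, and -1.12, SE 0.21).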

How the data were processed

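Total RNA from mouse colon was depleted of ribosomal RNA by RNase H, primed with random hexamers and read on a NovaSeq machine, per the labels' protocols. The deposited table holds raw counts per gene, which the authors made with Trimmomatic, HISAT2 and featureCounts on mm10, per the submitters' processing notes; DESeq2 is named there too. Versions and the strand setting are not given in the sources used here, so overlapping genes such as Col4a1 and Col4a2 may share reads. The groups are those of the labels.

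Counts were tested with edgeR 4.0.16 (R 4.3.3), with TMM scaling, its filter on low counts, a robust quasi-likelihood fit of all 21 libraries with 1 coefficient per group, and Benjamini-Hochberg adjustment at 0.05 over 15936 genes. SE is the log2 fold change divided by the square root of F. CPM use TMM-scaled totals. Chain ratios were compared by exact permutation in Python 3.11.15 with scipy 1.17.1. Gene models are GENCODE M21 (GRCm38) and promoter windows RefSeq GRCm38.p6, for 35 of the 44 genes. The SE includes the spread between libraries, while the floors cover counting error only.

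The chains of types I, III, IV to VII, XII, XIV, XV, XVII and XVIII are described by library, as are up to 3 higher and 3 lower members per comparison with the largest change and a mean of 50 counts in a group. Other genes come from lists of collagen synthesis, receptors, breakdown and basement membrane, and of cell type markers. The members and lists were chosen with earlier results of these data known. The squamous markers, of which Krt5 is printed, and the omission of libraries with Krt5 at 100 CPM or more were chosen after seeing the data, as was the GC and length offset for the ratios.

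Alternatives were other scaling (DESeq2 size factors, library totals), no filter, DESeq2 1.42.0, an offset for GC content and length, the late running number as a covariate, only the compared groups, the replicate block and each library left out. Same-numbered wild-type male normal and tumour libraries deviated together (r 0.17, 0.17 and 0.21), but no label says that these numbers pair libraries. Replicate 1 of wild-type male normal colon had r 0.46 with replicate 1 of knock-in male normal colon, which is of another genotype. Both are high in Krt5 (223.1 and 240.5 CPM), and replicates 2 and 3 of these groups had r -0.21 and -0.07. Without a label these r values do not settle pairing, and the block is given as an alternative only. On simulated counts for the wild-type male tumour comparison, 65% of 200 changed genes among 15698 were recovered (82.7% of those changed by 2 and 43.3% of those changed by 1 on the log2 scale), with 5 false calls. Only these 200 genes were changed there, whereas 35.7% of all tested genes were called in the data, so the rates need not hold for the data.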

Additional observations from a re-analysis of the deposited data

Results flagged for a closer look

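For 8 collagen genes the difference between tumours and normal colon in wild-type mice differed between the sexes by an interaction test (edgeR, adjusted over all tested genes), and was more positive in females. On the log2 scale the interaction was 1.78 for Col1a1 (adjusted p 0.0454), 1.37 for Col1a2 (adjusted p 0.0241), 1.67 for Col4a1 (adjusted p 0.00935), 1.82 for Col4a2 (adjusted p 0.0138), 1.40 for Col5a1 (adjusted p 0.0454), 4.25 for Col9a3 (adjusted p 0.0362), 2.20 for Col15a1 (adjusted p 0.0256) and 1.97 for Col18a1 (adjusted p 0.0241). For 4 genes the difference between the genotypes in normal colon was more positive in females than in males, by 1.05 for Col4a1, 1.46 for Col4a2, 1.26 for Col6a1 and 1.48 for Col6a2. Both tests use the 3 wild-type female normal libraries and the 3 of wild-type males. Groups of 3 libraries are too small for a test of single outlying values.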

How the results depend on the processing

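Of 102 collagen gene results that passed, 0 changed direction under any alternative. With all replicates kept, 838 of 981 values stayed past the threshold, and with 1 library left out, 489 of 684. Counts of called members that moved by more than 1.5 times were as follows. With a fit of the compared groups alone, 4 passed in knock-in male tumours (1 higher, 3 lower) and 4 between the sexes in wild-type tumours. The sex by tumour interaction then had 4 and the sex by genotype interaction 7. Of all genes 4.72%, 8.1%, 1.16% and 1.62% passed in that fit, in that order, against 20.4%, 0.86%, 1.12% and 2.54% in the main fit. With the libraries high in Krt5 left out, a choice made after seeing the data that keeps 14 libraries, 6 passed in wild-type male tumours. Between the sexes in tumours and for the sex by tumour interaction 0 passed (unadjusted p under 0.05 in 8 and 18). Of all genes, 19.1%, 0.123% and 0.0614% passed, in that order. Knock-in male tumours and knock-in female normal colon then had 1 library each, so their counts are not given. By DESeq2, 4 passed between the sexes in tumours, 5 between the sexes in knock-in normal colon and 1 for the genotype by tumour interaction. For the sex by genotype interaction 10 did. Of all genes DESeq2 called 5.24%, 3.66%, 8.32% and 5.77%, in that order, against 0.86%, 0.584%, 1.51% and 2.54% in the main fit. The sex by genotype interaction had 8 with library totals and 2 with the GC and length offset, where 3.07% and 2.66% of all genes passed. That offset left 0 between the sexes in tumours and made 60% of the calls in knock-in male tumours higher, or 50% together with the replicate block, against 41.7%. With the late running number 1 passed between the sexes in tumours and 0 for the sex by tumour interaction, where 1.05% and 0.144% of all genes did. In that setting 87.5% of calls in wild-type female tumours were higher, against 75.9%. With no filter 33.3% were higher in wild-type male tumours, against 45.5%. The cause was not tested. Library totals moved the median of all genes by 0.15 in wild-type female tumours, where 23 members were then higher and 6 lower.

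With the replicate block 9 passed in wild-type male tumours, against 11, though no label says that the numbers pair the libraries. In the other backgrounds the numbers are shared too (r from -0.30 to 0.06 for knock-in males). There the block gave 9 in knock-in male and 28 in wild-type female tumours. It gave 1 between the sexes in tumours and 4 for the sex by tumour interaction. With the GC and length offset as well the last 2 became 0 and 5. No paired analysis was possible because 2 replicates carry no number for comparisons with knock-in female normal colon.

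With each library left out in turn, the counts ran from 7 to 16 in wild-type male, 5 to 13 in knock-in male and 24 to 29 in wild-type female tumours, and from 1 to 5 between male tumours, 10 to 14 between the genotypes in female normal colon, 14 to 19 and 0 to 2 between the sexes in wild-type normal colon and in tumours, and 0 to 2 in knock-in normal colon. The interactions ran from 0 to 1 for genotype by tumour, 1 to 12 for sex by tumour and 0 to 4 for sex by genotype. The ratio of Col4a1 to Col4a2 ran from -0.029 to 0.015 and was 0.043 with the GC and length offset, and that of Col5a1 to Col5a2 ran from -0.37 to -0.20 and was -0.32 with the offset (exact permutation, adjusted p 0.032). Levels under 0.872 CPM in the shallowest library rest on fewer than 3 counts.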
